A study of Homo sapiens with 5 samples.

Results

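The first 2 days of hairpin induction were examined in IMR32, an established human neuroblastoma cell line, by setting the array taken at 0 h against those taken at 24 and 48 h. These are 3 of the 5 arrays of the series, chosen by the induction times in their labels. All 5 carried total RNA of cells with a stably integrated short hairpin RNA (shRNA) against MEIS1, described as specific for MEIS1b, whose expression is switched on by doxycycline. The 0 h sample had no doxycycline. The 24 and 48 h samples had it for those times, and the remaining arrays were from 96 and 192 h. The labels state that control cells were grown in the same way without the drug, but the 0 h array is the only undrugged sample here, and no cells given doxycycline without the hairpin are among the 5. Whether the cells are 1 clone or a pool is not given in the sources used here. Each time point is 1 array with no replicate, so both changes below share the single 0 h array, and time in culture and doxycycline cannot be told apart from induction of the hairpin.

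MEIS1 belongs to the TALE class of homeobox factors, which bind DNA together with partners such as PBX and take part in the development of the sympathetic nervous system, from which neuroblastoma arises. Neuroblastoma cells keep parts of the sympathetic neuron programme, including catecholamine genes, acetylcholine receptors and neuronal filaments. EGR1 is a zinc-finger factor of the immediate early class, switched on within minutes by growth factor and stress signals. The ID proteins are targets of bone morphogenetic protein (BMP) signalling that hold basic helix-loop-helix factors off DNA, among them the factors that drive genes of differentiating muscle and neurons.

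Values are MAS5 signals, which the authors deposited on a log2 scale. Changes are differences in log2(signal + 4.7) from the 0 h array, a scale that understates changes of dim genes. A gene is represented by its brightest probe set, and 11944 of 19775 genes had a mean signal over the 5 arrays of at least 17.9 and were tested. The median signal of all probe sets was 16 to 18.6 on the 3 arrays, the 3' to 5' signal ratio lay between 1.04 and 1.08 for GAPDH and between 1.29 and 1.43 for ACTB, and the 27 poly-A spike-in probe sets read on average 0.10 higher at 24 h and 0.37 lower (log2) at 48 h than at 0 h. The sympathetic or neuroblastoma markers GATA3 (2793.1 at 0 h), MYCN (4248.1), CHGA (998.2), ISL1 (817.5) and PHOX2A (754.0) gave clear signals. DBH (137.0) and HAND2 (54.4) were dimmer. TH, the first enzyme of catecholamine synthesis, read only 2.1, 5.5 and 4.2 at 0, 24 and 48 h, below the filter.

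MEIS1, the target, read 1052.0 at 0 h, 851.5 at 24 h and 847.2 at 48 h in its brighter probe set, and 857.0 and 786.6 at 96 and 192 h. Its other probe set read 597.2, 495.9 and 560.4 at 0, 24 and 48 h. Both probe sets were lower on both early arrays, and the brighter one stood at 0.81 of its 0 h level. The mean log2 change of -0.31 ± 0.14 (SE) did not pass limma's threshold (adjusted p = 0.837). Which MEIS1 isoforms the probe sets detect was not analysed here. Of 12 tested TALE homeobox genes, MEIS1 included, 5 were lower and 1 was higher on both early arrays, with a median change of -0.046. With array medians set equal or with quantile normalization 2 were lower and 1 higher. PBX4, a DNA-binding partner of MEIS proteins, was the higher one, reading 53.3, 53.5 and 61.3. None of these genes passed 2-fold or limma's threshold.

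Which genes changed in the first 2 days was asked by direction, by size and by test. Of the 11944 genes, 7865 (65.8%) moved the same way on both early arrays, 4005 (33.5%) upward and 3860 (32.3%) downward. Since both changes are taken from the same 0 h array, a shared direction alone does not show that a gene changed. The shares of 33.5% and 32.3% are the background for every count of list members given here. A mean change of at least 2-fold in the same direction on both arrays was reached by 75 genes upward (0.628%) and 43 downward (0.36%), and at least 1.5-fold by 297 (2.49%) and 324 (2.71%). The signal filter is a mean over all arrays, most of them induced. It thus admits genes dim at 0 h and brighter later more readily than the reverse. With no filter the 2-fold counts were 494 upward and 481 downward. The upward excess among filtered genes therefore cannot be told apart from the filter. The limma fit set 0 h against the mean of 24 and 48 h, with Benjamini-Hochberg adjustment over all tested genes. It called 18 genes (0.151%), 15 that rose (0.126%) and 3 that fell (0.0251%). An unadjusted p under 0.05 was found for 675 genes (5.65%). Its 1 residual degree of freedom is the difference between 24 and 48 h and not a replicate spread, and the 0 h array is assumed to vary likewise. The words rose and fell are kept for the genes past this threshold.

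The 15 genes that rose were EGR1, SSTR5-AS1, SDK2, CALB1, RIIAD1, ID3, NRP1, SAMD11, SCN3B, PRPH, LIMCH1, ID1, LRRN3, TP53INP1 and NICOL1, and the 3 that fell were CHRNA1, STC1 and RGS4. Those outside the naming rule given with the processing were added after their values were seen. The calls depended on the processing. With quantile normalization 2 of the 18 passed, 1 up (EGR1) and 1 down (CHRNA1). With the mean of all probe sets of a gene 1 passed (CHRNA1), with no signal filter 0 passed, and in a fit on all 5 arrays EGR1, SSTR5-AS1, ID3 and SDK2 passed. In contrast, 18 of 18 passed with an offset 4 times smaller or larger. Some genes that missed the threshold passed elsewhere. With only genes of a mean signal of at least 100 tested, 29 rose and 13 fell, among them CDKN1A (limma adjusted p = 0.0151), DDC (0.00828) and TBX3 (0.0283) upward and PLK1 (0.0367) downward. With array medians set equal DKK1 (limma adjusted p = 0.0224), TNNC2 (0.0267) and ALOX12-AS1 (0.0263) passed upward. The prior degrees of freedom were infinite in that fit, so it used a spread pooled over genes and not each gene's own.

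**Figure D1:**
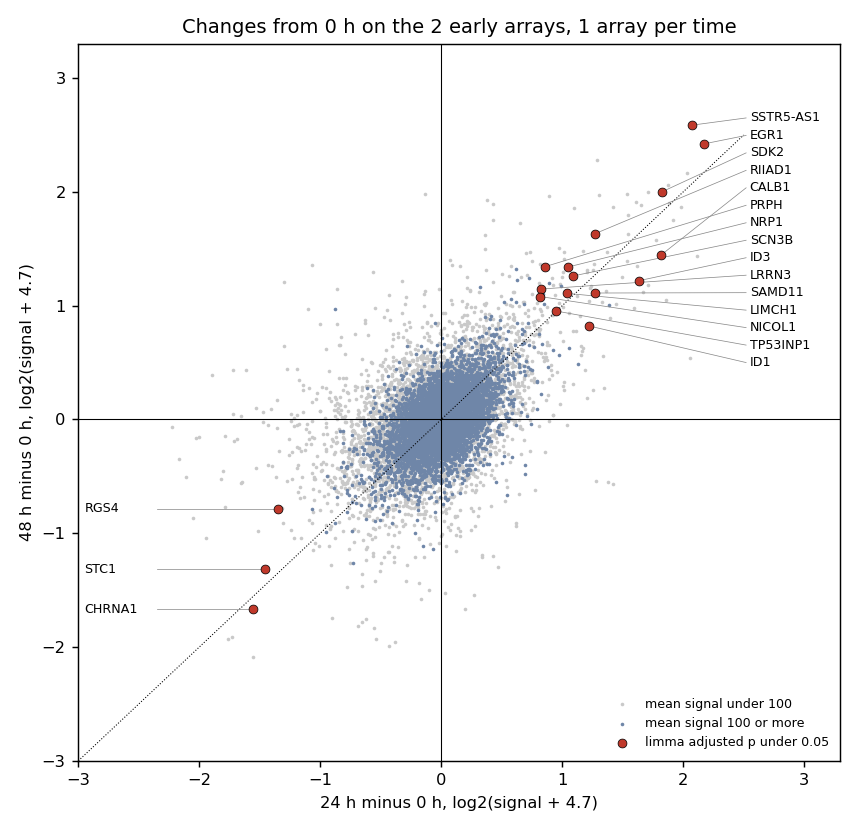
Each point is 1 of 11944 genes, with its log2 change from 0 h at 24 h on the horizontal axis and at 48 h on the vertical axis. Genes with a mean signal under 100 are grey, brighter genes are blue, and the 18 genes past limma's threshold are red and named; both axes share the single 0 h array, and the dotted line marks equal changes. EGR1 (2.17 and 2.42) and SSTR5-AS1 (2.07 and 2.59) lie furthest up and CHRNA1 (-1.56 and -1.67) furthest down among the named genes.

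EGR1 had the largest rise of the bright genes. Its signal was 28.7 at 0 h, 145.4 at 24 h and 174.2 at 48 h, and 81.9 and 116.0 at 96 and 192 h. Both early arrays stood well above the 0 h array and above both later ones. The mean log2 change was 2.29 ± 0.24 (SE; limma adjusted p = 1.64e-04), or 4.91-fold. Its other probe sets read 23.5, 116.4 and 115.5, and 12.8, 28.7 and 32.8, at the same 3 times, so all 3 were higher on both arrays. EGR1 lies on human chromosome 5, and the 250 bases before its transcription start (RefSeq, GRCh38.p14, chr5:138465229-138465478, plus strand) are shown because the gene's immediate early response is known to run through serum response and cyclic AMP elements there. Capitals mark 2 CArG boxes, the element of serum response factor, which lie 105 to 96 and 83 to 74 bases before the start, and 2 matches to TGACGT, part of the cyclic AMP response element, at 136 to 131 and 67 to 62.
EGR1: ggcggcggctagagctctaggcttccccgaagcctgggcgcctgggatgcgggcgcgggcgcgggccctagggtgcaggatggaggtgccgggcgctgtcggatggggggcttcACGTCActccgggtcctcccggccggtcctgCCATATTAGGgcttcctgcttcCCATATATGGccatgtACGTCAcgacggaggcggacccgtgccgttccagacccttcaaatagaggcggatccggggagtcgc
GGCGCC, a SMAD-type motif, also matched once, in lower case at 214 to 209, and TGACAG and the E-box CANNTG did not. Searched on both strands, a CArG box occurred in 1.17% of 34788 RefSeq promoter windows of this length and in 0.994% of the 9760 of tested genes, TGACGT in 7.09% and 10.5%, and GGCGCC in 16.4% and 26.8%. A match is a stretch of letters and not a site shown to be bound.

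No other tested immediate early gene rose with EGR1. Of 19 tested, 4 were higher and 6 lower on both early arrays, with a median change of 0.066, and EGR1 was the 1 member past 2-fold and the 1 past limma's threshold. ATF3, a stress-induced bZIP factor, read 72.6, 45.5 and 28.2 at 0, 24 and 48 h. The FOS-family gene FOSL2 read 43.9, 31.3 and 20.5, and the early response gene IER3 46.3, 31.7 and 30.7. These 3 were lower on both arrays, each without passing the test (limma adjusted p = 0.633 for ATF3 and 0.997 for FOSL2). KLF4, a zinc-finger factor, was higher at 25.8, 33.7 and 37.8. JUN read 365.6, 413.5 and 358.6 and JUNB 60.7, 64.5 and 63.0, close to their 0 h levels. Among members below the filter, FOS read 1.8, 12.4 and 17.4 and KLF2 4.1, 27.0 and 22.0, both higher on both arrays from signals near background, while EGR3 read 8.8, 14.4 and 4.8. Without the filter 8 of 28 members were higher and 8 lower, and 3 passed 2-fold upward.

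Genes of the feedback loop of ERK, a kinase upstream of EGR1, were lower more often than higher. Of 13 tested, 8 were lower and 2 higher on both early arrays (background 32.3% and 33.5%), with a median of -0.12, and 0 passed limma's threshold. The number lower was 5 with array medians set equal and 6 with quantile normalization. PHLDA1, induced by growth factors, read 112.6, 57.4 and 55.7, a mean change of -0.94 (adjusted p = 0.292 by limma), and 4 of its 5 tested probe sets were lower on both arrays. The ETS factor ETV5 read 386.7, 253.5 and 271.7 (-0.55), lower on both arrays in 3 of its 4 tested probe sets. SPRY2, an inhibitor of receptor tyrosine kinase signalling, was lower as well, at 154.5, 102.7 and 126.1. Its relative SPRY4 was higher at 20.5, 32.3 and 27.3. The ERK phosphatase DUSP6 differed between the early arrays, with 71.5, 47.0 and 79.5.

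**Figure D2:**
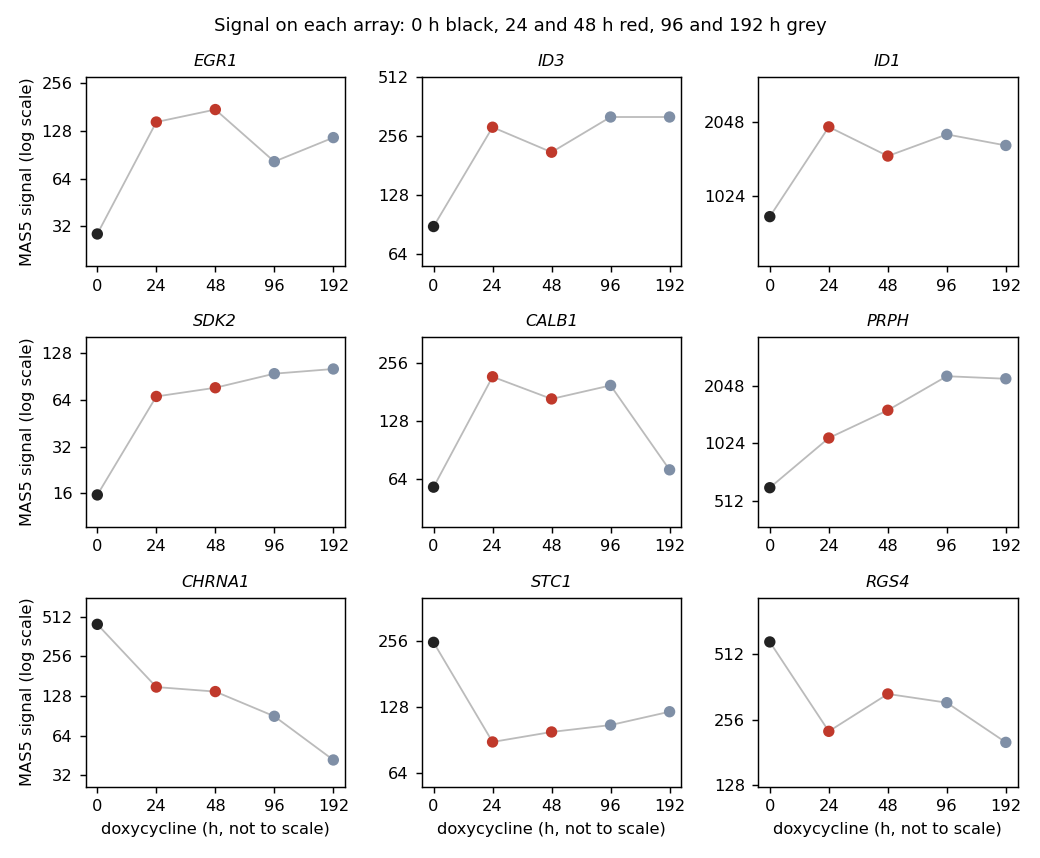
Signal (log axis) of 9 of the 18 called genes on each of the 5 arrays against hours of doxycycline, with 0 h in black, 24 and 48 h in red and the later arrays in grey. EGR1, ID3, ID1, SDK2, CALB1 and PRPH are higher on both early arrays than at 0 h, and CHRNA1, STC1 and RGS4 lower; EGR1 and CALB1 are again lower at 192 h (116.0 and 71.3) than at 48 h (174.2 and 166.0).

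Most tested ID and BMP target genes were higher on both early arrays. Of 13 tested ID and BMP target genes 11 were higher and 0 lower on both early arrays (84.6%, against 33.5% of all tested genes). Their median change was 0.49, against 0.0018 over all genes, and 2 members rose, ID3 and ID1. Both are markers of this comparison, chosen with earlier results of these data known. Without the filter 12 of 18 members were higher and 2 lower. With the mean of all probe sets 9 were higher and 1 lower, and with array medians set equal 10 and 1. ID3 read 88.0 at 0 h, 283.7 at 24 h and 211.3 at 48 h, and 320.0 on both later arrays. Every induced array was thus at least at 211.3, and 24 h was above 48 h. The mean log2 change was 1.43 ± 0.20 (limma adjusted p = 0.00306), or 2.69-fold. ID1 was the brightest member, at 841.4, 1964.6 and 1491.5 at 0, 24 and 48 h and 1830.0 and 1648.6 later. It followed the same order, with 24 h above 48 h, and its change was 1.02 ± 0.16 (limma adjusted p = 0.00604). The 250 bases before each start are shown for these genes, which moved together (RefSeq, GRCh38.p14; ID1 at chr20:31605039-31605288, plus strand, and ID3 at chr1:23559502-23559751, minus strand). They are in lower case throughout, since none of 5 searched motifs matched in either window: the CArG box, TGACGT, the MEIS-type TGACAG, the SMAD-type GGCGCC and the E-box CANNTG.
ID1: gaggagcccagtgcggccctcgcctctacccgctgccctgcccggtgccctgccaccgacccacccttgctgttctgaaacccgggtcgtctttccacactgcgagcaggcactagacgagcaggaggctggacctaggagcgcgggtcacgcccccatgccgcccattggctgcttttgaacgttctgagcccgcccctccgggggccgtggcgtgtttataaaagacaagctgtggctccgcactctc
ID3: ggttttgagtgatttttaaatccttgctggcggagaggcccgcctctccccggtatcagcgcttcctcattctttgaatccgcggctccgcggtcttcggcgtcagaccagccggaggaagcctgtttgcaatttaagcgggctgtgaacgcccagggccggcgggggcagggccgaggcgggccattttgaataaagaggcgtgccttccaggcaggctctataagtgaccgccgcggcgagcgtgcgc
CANNTG was found in 61.8% of the 34788 windows and 53.1% of those of tested genes, and TGACAG in 10.4% of the latter. The lack of a match says only that these letters are not in these windows.

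The other members had smaller changes, and none passed the test. ID2 read 559.7, 882.7 and 751.0, again with 24 h above 48 h, though 1 of its 2 probe sets was not higher on both arrays. BAMBI, a decoy receptor that damps BMP signals, read 223.7, 331.0 and 387.0 (0.67 ± 0.17, limma adjusted p = 0.173). ID4 was higher at 98.6, 125.5 and 167.4, and the homeobox gene MSX2 at 29.6, 39.6 and 51.0. The inhibitory SMAD genes were also above 0 h, SMAD6 with 131.0, 199.8 and 173.2 and SMAD7 with 109.1, 142.6 and 130.6. The 2 members that did not keep 1 direction were DLX5, at 84.8, 67.4 and 123.5, and HEY1, at 42.3, 35.4 and 43.0. The signalling genes upstream of these targets showed no common direction. Of 19 tested BMP and TGF-beta ligands, receptors and SMADs, 6 were higher and 4 lower on both arrays, with a median of 0.035. TGFB2 read 133.8, 181.1 and 168.3, and SMAD5, a BMP signal carrier, 857.9, 754.5 and 534.2. The ligand gene BMP4 was below the filter at 14.9, 4.8 and 2.2.

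CHRNA1, which encodes the agonist-binding alpha subunit of the muscle acetylcholine receptor, had the largest fall. It read 449.6 at 0 h, 149.7 at 24 h and 138.3 at 48 h, then 89.7 and 41.7. The level was lower on each induced array than on the one before it. The mean log2 change of the early arrays was -1.61 ± 0.18 (limma adjusted p = 1.64e-04), which is 3.06-fold lower. It was the 1 probe set of the gene to pass the filter. The muscle-type promoter of this gene is known to answer to basic helix-loop-helix factors through E-boxes. The 250 bases before its start (RefSeq, GRCh38.p14, chr2:174764473-174764722, minus strand) hold 3 matches to CANNTG, in capitals, at 152 to 147, 75 to 70 and 56 to 51 bases before the start.
CHRNA1: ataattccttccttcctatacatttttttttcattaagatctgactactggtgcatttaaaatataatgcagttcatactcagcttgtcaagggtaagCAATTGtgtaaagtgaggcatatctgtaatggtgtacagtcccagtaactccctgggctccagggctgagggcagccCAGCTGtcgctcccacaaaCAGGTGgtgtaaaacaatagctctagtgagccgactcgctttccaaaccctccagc
None of the other 4 motifs matched there. CANNTG was found in 61.8% of all windows and in 53.1% of those of tested genes. Whether any of these matches is bound, or had a part in the fall of CHRNA1, was not tested.

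The nicotinic receptor subunits had no common direction. Of 8 tested, 4 were lower and 2 higher on both early arrays, with a median of 0.0017, and CHRNA1 alone passed 2-fold and limma's threshold. CHRNA3, the main ganglionic alpha subunit, read 1743.5, 1669.0 and 2012.1. CHRNA5 read 199.9, 186.6 and 195.7 and CHRNB4 89.5, 71.8 and 81.4, both slightly lower on both arrays. CHRNA9 was higher at 275.2, 316.4 and 354.3, and so was the dim CHRNA2 at 11.4, 27.7 and 21.2 (0.85, limma adjusted p = 0.997). The other muscle subunits were dim. CHRNG read 28.9, 10.0 and 27.7, while CHRNB1 (15.3, 9.4 and 15.7), CHRND (3.4, 1.8 and 15.2) and CHRNE (4.3, 8.5 and 19.2) were below the filter, and so were the endplate genes MUSK and RAPSN and the myogenic factor MYOG.

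Of 18 muscle and endplate genes with a probe set, apart from the receptor subunits, 6 passed the filter, and 3 of those were higher and 2 lower on both early arrays. The troponin gene TNNC2 read 58.2, 141.9 and 124.5, a change of 1.13 ± 0.23 that missed the threshold (limma adjusted p = 0.0587). CKM, muscle creatine kinase, read 71.0, 153.0 and 112.1, and the troponin gene TNNI1 17.2, 36.5 and 47.0. These 3 were thus above 0 h while CHRNA1 was below it. The cardiac actin gene ACTC1 read 41.2, 8.6 and 36.9. The median of these 6 genes was 0.45, and over all 18 without the signal filter it was -0.18.

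Of 27 tested neuronal differentiation genes 15 were higher (55.6%) and 5 lower (18.5%) on both early arrays, with a median of 0.26. Over all tested genes these shares were 33.5% and 32.3%. With the mean of all probe sets 13 members were higher and 3 lower, with a median of 0.15. With array medians set equal 19 were higher and 5 lower. PRPH and NRP1 were the 2 list members that rose. PRPH, the intermediate filament peripherin of sympathetic and sensory neurons, read 599.3, 1092.8 and 1528.7, then 2306.7 and 2236.6. It was higher at 48 than at 24 h and higher still on the later arrays. Its early change was 1.10 ± 0.17 (limma adjusted p = 0.00525). NRP1, which pairs with plexins and VEGF receptors, read 61.1, 131.5 and 161.9, then 457.1 and 960.3. Its early change, 1.19 ± 0.23 (limma adjusted p = 0.0346), was made by levels far below those of 96 and 192 h, and all 3 tested probe sets were higher on both arrays. GAP43, a growth cone protein, read 39.0, 57.0 and 87.9, and the neurofilament gene NEFL 389.0, 541.9 and 553.9. The stathmin gene STMN4 was dim, at 8.2, 20.8 and 24.7. On the lower side, MAP2 of dendrites read 383.9, 317.9 and 349.1 and the tau gene MAPT 114.5, 83.0 and 98.7.

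SDK2, a homophilic adhesion molecule that guides synaptic layering in the retina, read 15.6 at 0 h, 67.3 at 24 h and 76.6 at 48 h, then 94.4 and 101.2. All 4 induced arrays were well above the 0 h signal, which itself lay below the filter value of 17.9. SDK2 was thus tested only because its induced arrays were higher. It is also a marker of this comparison, chosen with earlier results of these data known, so the test of its early change is no independent support. The early change was 1.91 ± 0.33 (limma adjusted p = 0.0139). Its 4 other probe sets were all below the filter. Of 13 tested adhesion genes of the immunoglobulin family 5 were higher (38.5%) and 2 lower (15.4%) on both arrays, with a median of 0.12. The share higher was near the 33.5% of all tested genes, and SDK2 was the 1 member that rose. CADM1, a synaptic adhesion gene, read 417.9, 525.4 and 641.0, and NRCAM 133.4, 177.7 and 158.8. SDK1, the other sidekick gene, read 21.9, 18.5 and 33.4 without a common direction, and CNTN3 was lower at 164.3, 115.0 and 122.2.

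CALB1, the calcium buffer calbindin, read 58.0, 216.2 and 166.0, then 195.0 and 71.3. It was high at 24, 48 and 96 h and near its 0 h level at 192 h. Its early change was 1.63 ± 0.22 (limma adjusted p = 0.00175), and its second probe set read 79.1, 223.6 and 133.4. SCN3B, a sodium channel beta subunit, read 74.7, 163.8 and 185.5 (1.17 ± 0.21, limma adjusted p = 0.0182). Its other probe set, nearly as bright, read 96.4, 121.8 and 167.1, a smaller change of 0.54. LRRN3, a neuronal membrane protein with leucine-rich repeats, read 129.1, 232.7 and 291.5 (0.99 ± 0.19, limma adjusted p = 0.0346). LIMCH1, a regulator of non-muscle myosin, read 101.2, 213.4 and 223.5 (1.07 ± 0.19, limma adjusted p = 0.0169), and 3 of its 4 tested probe sets were higher on both arrays. In their brightest probe sets SCN3B and LIMCH1 were at similar levels on both early arrays, while CALB1 was higher at 24 h and LRRN3 at 48 h. LRRN3 and LIMCH1, like RGS4, TP53INP1 and NICOL1, did not pass with array medians set equal.

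The remaining genes that rose were RIIAD1, at 96.9, 240.6 and 310.4 (1.45 ± 0.19, limma adjusted p = 0.00175), NICOL1, at 290.8, 515.9 and 620.2 (0.95 ± 0.16, limma adjusted p = 0.0104), and SAMD11, at 52.7, 133.9 and 119.3 (1.19 ± 0.24, limma adjusted p = 0.0493). SSTR5-AS1, an antisense RNA of the somatostatin receptor gene SSTR5, read 10.2, 58.0 and 84.8 (2.33 ± 0.36, limma adjusted p = 0.00525). Its 0 h signal lay below the filter value, as that of SDK2 did, so SSTR5-AS1 was tested only because its induced arrays were higher. Its later signals were 79.8 and 82.0, close to that of 48 h. STC1, the secreted glycoprotein stanniocalcin, fell, reading 252.1 at 0 h and 88.7 and 98.5 on the early arrays, then 105.9 and 121.8 (-1.39 ± 0.21, limma adjusted p = 0.00494). RGS4, which speeds the shut-off of G proteins, fell from 581.7 to 225.9 and 335.5 (-1.07 ± 0.19, limma adjusted p = 0.0196). Both were lower on all induced arrays, and all 3 tested probe sets of each were lower on both early arrays.

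Genes under p53 control were mostly higher. Of 17 tested p53 target genes 12 were higher and 1 lower on both early arrays (70.6%, against 33.5% of all genes), with a median of 0.23. TP53INP1, a stress-induced cofactor of p53, rose from 343.7 to 667.8 and 669.8 and read 1026.1 and 716.1 later. The early arrays gave nearly the same level, a change of 0.95 ± 0.15 (limma adjusted p = 0.00525). CDKN1A, the CDK inhibitor p21, read 262.5, 581.2 and 369.0, higher at 24 than at 48 h (0.81 ± 0.20, limma adjusted p = 0.173). SESN1, of the sestrin family, read 72.4, 137.6 and 101.6, and the DNA repair gene DDB2 136.4, 210.5 and 198.0. MDM2, which marks p53 for degradation, was nearly level at 451.8, 465.4 and 459.3, and the death receptor FAS read 56.0, 60.3 and 73.7. PLK3 was the 1 lower member, at 36.0, 31.2 and 31.2.

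**Figure D3:**
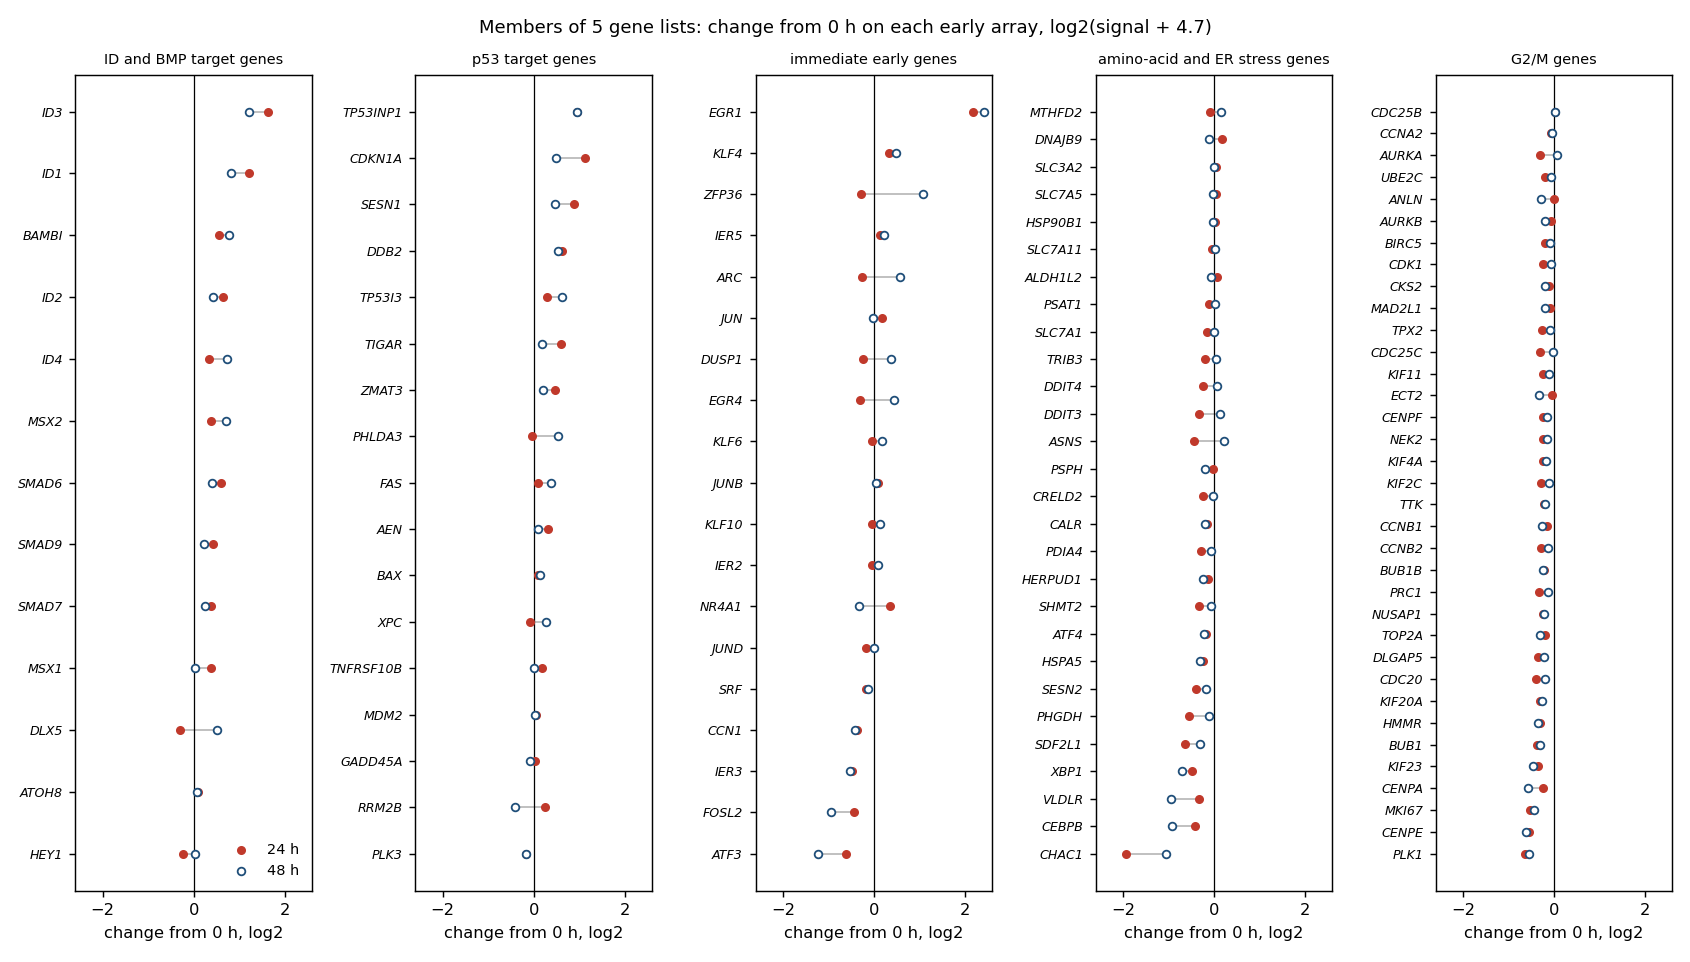
Log2 change from 0 h of every tested member of 5 gene lists, with the 24 h array as a filled red point and the 48 h array as an open blue point, members sorted by their mean. Both points lie right of 0 for 11 of 13 ID and BMP target genes and 12 of 17 p53 target genes, and left of it for 32 of 35 G2/M genes; among immediate early genes EGR1 is the 1 member past 2-fold.

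Mitotic genes were lower by a small amount on both arrays. Of 35 tested G2/M genes 32 were lower and 1 higher (91.4% lower, against 32.3% of all genes), with medians of -0.24 at 24 h and -0.20 at 48 h, and 0 passed 2-fold or limma's threshold, though PLK1 passed among genes of at least 100 in signal. PLK1, the mitotic kinase, read 659.6, 419.7 and 446.2 (-0.60 ± 0.15, limma adjusted p = 0.163). CENPE, a kinetochore motor, read 498.4, 338.6 and 321.3, and the proliferation antigen MKI67 688.5, 475.7 and 504.8, lower in all 4 of its probe sets. The 3 exceptions were CDC25B (602.4, 606.7 and 610.8), AURKA (1112.0, 903.0 and 1154.2) and ANLN (529.6, 532.2 and 434.0). The number of lower members was 28 to 33 over the other settings of offset, filter, scaling and probe set. In bulk RNA, fewer cells in mitosis and less of these transcripts per cell cannot be told apart.

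For G1/S genes the count depended on the scaling. Of 31 tested, 19 were lower and 7 higher, with a median of -0.10, and with array medians set equal 8 were lower and 7 higher. E2F1, a driver of S-phase entry, read 332.8, 196.5 and 252.9, and the licensing factor CDT1 253.4, 214.3 and 177.5. PCNA read 2427.7, 2342.8 and 2177.7, and RRM2, of nucleotide synthesis, 2023.5, 2010.2 and 2365.9. D cyclins and CDK inhibitors were split, with 3 of 9 higher and 3 lower and a median of -0.057 (4 and 0 with array medians set equal). CCND1 read 1301.9, 1315.4 and 1020.4, CDKN1B 996.0, 981.4 and 1084.9. Of 10 tested histone genes 6 were higher and 3 lower, with a median of 0.28. H2BC12 read 184.8, 310.7 and 252.3, while H2AX, the histone variant of DNA damage foci, read 658.0, 450.4 and 472.2.

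Stress genes showed no member past limma's threshold. Of 28 tested amino-acid and endoplasmic reticulum stress genes 0 were higher and 15 lower (53.6%, against 32.3% of all genes) on both early arrays. Their median was -0.12. Under quantile normalization 2 were higher and 16 lower, and with the mean of all probe sets 3 and 14. CHAC1, a glutathione-degrading enzyme induced by ATF4, read 33.7, 5.3 and 13.9 and passed 2-fold. CEBPB, a bZIP factor, read 537.0, 403.3 and 282.9 (-0.66 ± 0.18, limma adjusted p = 0.277). XBP1, a factor of the unfolded protein response, read 253.0, 180.9 and 153.3, though 1 of its 2 probe sets was not lower on both arrays. ATF4 itself read 2470.9, 2175.8 and 2137.4 and the chaperone gene HSPA5 2145.8, 1807.8 and 1728.9. The asparagine synthetase gene ASNS differed between the early arrays, at 871.5, 641.3 and 1018.3. Among 10 heat shock genes 3 were higher and 3 lower (4 and 1 with array medians set equal). Among 14 interferon-stimulated genes 6 were higher and 5 lower, and IFI44L read 613.9, 347.0 and 472.9.

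Among sympathetic and neuroblastoma transcription factors 8 of 18 tested were higher and 6 lower on both arrays, with a median of 0.093 (9 and 4 with array medians set equal). TBX3, a T-box factor, read 173.5, 332.8 and 268.0 (0.77 ± 0.18, limma adjusted p = 0.124) and was higher in all 4 of its tested probe sets. HAND2, a factor of sympathetic neuron differentiation, read 54.4, 101.2 and 122.3 (0.97 ± 0.25, limma adjusted p = 0.199). LMO1 passed 2-fold from a dim start, with 7.5, 19.7 and 24.4. INSM1 was lower at 764.3, 504.9 and 616.0, and GATA3, HAND1 and MYCN kept close to their 0 h level, with MYCN at 4248.1, 3957.2 and 4020.5. Catecholamine and granin genes had 8 of 12 tested members higher (66.7%, against 33.5% of all genes) and 0 lower, with a median of 0.31. Without the filter 9 of 17 members were higher (52.9%) and 1 lower. With the mean of all probe sets 7 of 12 were higher and 0 lower, and with array medians set equal 10 and 0. The 48 h array was the higher one: the list's median was 0.25 at 24 h and 0.56 at 48 h. DDC, which makes dopamine, read 150.4, 233.0 and 383.4 (0.97 ± 0.22, limma adjusted p = 0.117). The granins SCG3 (106.5, 171.8 and 183.0) and CHGB (74.3, 93.1 and 125.9) were above 0 h on both arrays. PNMT, which makes adrenaline, was the 1 list member past 2-fold. It read 9.4, 13.6 and 49.1, then 8.4 and 36.3 on the later arrays. Its 0 h and 24 h signals lay below the filter value, so its mean change of 1.15 rests mainly on 48 h. That change missed the threshold (limma adjusted p = 0.908).

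Of 20 tested WNT pathway genes 12 were lower (60%, against 32.3% of all genes) and 4 higher (20%, against 33.5%) on both arrays. Their median was -0.18. The receptor gene FZD7 read 152.4, 96.4 and 102.7, lower in both of its probe sets, and the WNT-responsive gene AXIN2 136.4, 135.9 and 117.7. The secreted WNT inhibitor DKK1 went the other way, at 43.0, 107.1 and 101.4, a change of 1.19 ± 0.25 (limma adjusted p = 0.0787), and the inhibitor SFRP1 read 151.4, 217.8 and 225.3. Of 15 Notch pathway genes 6 were lower and 4 higher (8 and 6 with array medians set equal). HES6 read 523.6, 369.4 and 322.1 and the receptor gene NOTCH1 186.5, 143.8 and 142.7, while the atypical ligand gene DLK1 was higher at 65.6, 107.6 and 102.8. In neither pathway did a member pass limma's threshold, apart from DKK1 with array medians set equal.

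Of 26 tested hypoxia and glycolysis genes 8 were higher and 9 lower, with a median of -0.0020. VEGFA, a ligand of the complexes in which NRP1 takes part, read 195.1, 117.6 and 115.7 (-0.72 ± 0.20, limma adjusted p = 0.292) and was lower on both arrays in all 4 of its probe sets. Of 13 small RNA processing genes 3 were higher and 5 lower (3 and 3 with array medians set equal). These genes handle hairpin RNAs in the cell. DICER1, which cuts hairpins into short RNAs, read 405.7, 581.5 and 559.5 (0.49 ± 0.15, limma adjusted p = 0.374), higher in all 3 of its tested probe sets. AGO2, the slicing Argonaute, read 145.4, 114.7 and 116.2. Extracellular matrix genes were split, with 5 of 24 higher and 8 lower. COL1A2 passed 2-fold from a dim start, with 9.9, 25.7 and 26.8, while COL1A1 read 584.4, 592.0 and 479.2 and VCAN 295.9, 257.6 and 224.7. Of 13 cholesterol genes 3 were higher and 2 lower, with a median of 0.011. Of 36 respiratory chain genes 15 were higher (41.7%) and 6 lower (16.7%), with a median of 0.045. These counts were 21 and 3 with array medians set equal and 10 and 8 with quantile normalization.

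Ribosomal protein genes depended on the scaling. Of 39 tested, 15 were higher and 0 lower on both arrays, with a median of -0.015 at 24 h and 0.22 at 48 h. With array medians set equal 37 were higher and 0 lower, and with quantile normalization 12 were higher and 6 lower. RPS19 read 7720.0, 7350.8 and 10005.0, and RPL30 7078.5, 7584.2 and 8481.4. Over all tested genes the same settings gave 34.7% and 34.5% higher and 24.4% and 32.0% lower on both arrays.

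**Figure D4:**
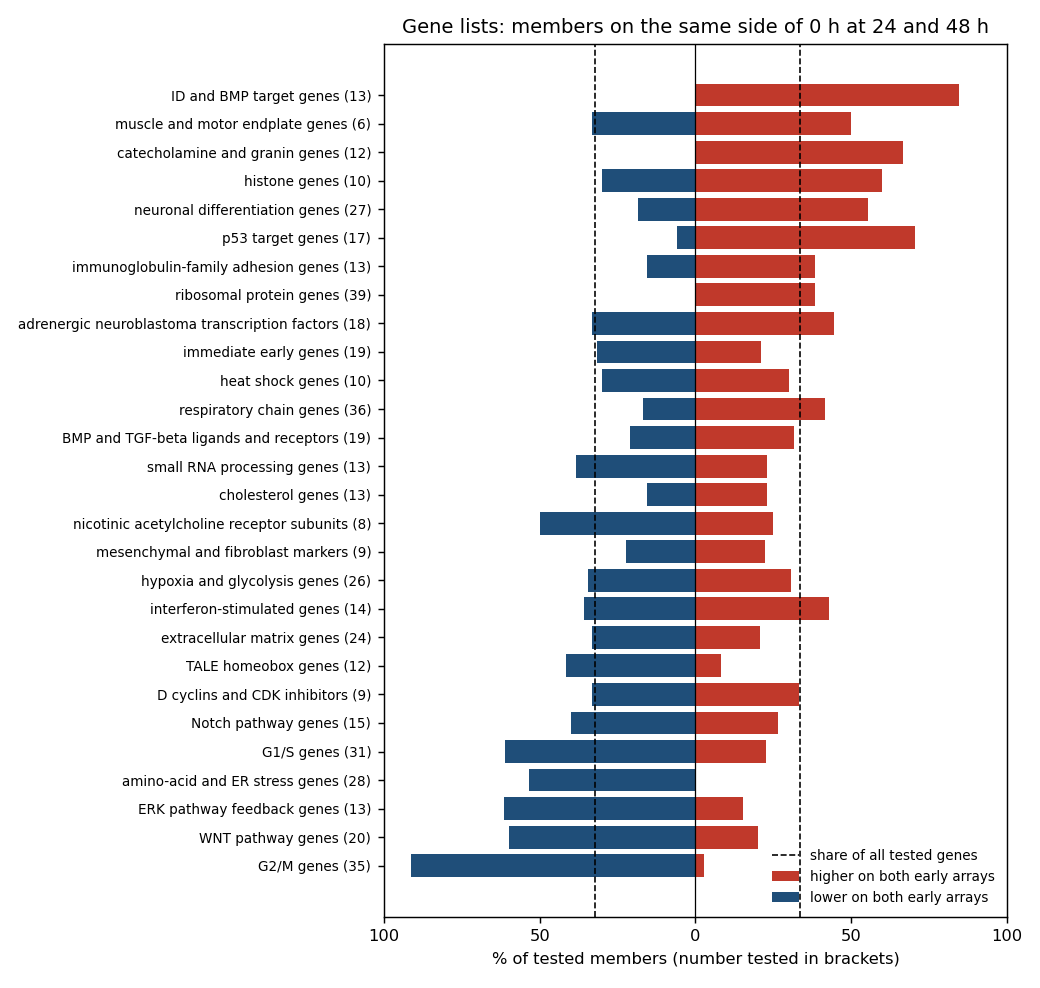
For each of 28 gene lists with at least 5 tested members (number in brackets), the percentage of members higher (red, right) and lower (blue, left) on both early arrays, sorted by median change; dashed lines mark the shares of all tested genes, 33.5% higher and 32.3% lower. ID and BMP target genes lie highest with 84.6% higher and G2/M genes lowest with 91.4% lower.

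Epithelial, blood, endothelial and Schwann cell markers were low on the 3 arrays, and mesenchymal markers were not. The summed signal of the Schwann cell markers was 54.1, 42.8 and 39.8 at 0, 24 and 48 h, with 4 of 5 below the filter. For blood and endothelial markers it was 93.1, 80.7 and 112.6, with 7 of 8 below, and for epithelial markers 86.3, 94.7 and 100.6, with 5 of 8 below. Mesenchymal and fibroblast markers summed to 5634.6, 6188.9 and 5805.1, with 8 of 17 below the filter. The brightest were VIM, at 2957.0, 3409.9 and 3620.8, and TWIST1, at 1336.0, 1489.3 and 1199.0. PDGFRA, a growth factor receptor of mesenchymal cells, read 457.3, 359.7 and 297.2, and 2 of the 9 tested markers were higher and 2 lower on both arrays. The part of such cells or states in the results was not tested.

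Most of the genes past 2-fold were dim. Of the 118, 95 had a mean signal under 50, 55 of the 75 higher genes lay below 17.9 at 0 h, and 34 of the 43 lower genes lay below it on an early array. The genes ranked highest after SSTR5-AS1 and EGR1 by the smaller of their early changes included ALOX12-AS1 (4.2, 31.6 and 35.2), FBLN2 (2.9, 25.4 and 23.1) and MLYCD (3.9, 26.8 and 31.1), all read from 0 h signals near background. On the lower side KLC3 (31.6, 6.0 and 4.8), ARSA (32.2, 6.4 and 5.1) and KLK1 (39.9, 10.5 and 5.8) had such early signals. DNAJC22 read 66.6, 21.5 and 24.0. The other tested probe set of MLYCD, nearly as bright, read 20.0, 11.8 and 21.9, without a common direction. None of these 7 genes passed limma's threshold, apart from ALOX12-AS1 with array medians set equal. At a mean signal of at least 100, 13 genes were higher and 3 lower by 2-fold. They were ID1, LIMCH1, PRPH, SCN3B, SAMD11, NRP1, ID3, RIIAD1, CALB1, EGR1, HLA-F-AS1, FAM43A and WHR1, and CHRNA1, STC1 and RGS4. HLA-F-AS1 (55.6, 107.2 and 133.7), FAM43A (53.4, 110.4 and 126.2) and WHR1 (50, 138.6 and 105.3) were named after their values were seen, and passed limma's threshold where only genes of at least 100 were tested. The other tested probe set of WHR1 stayed near its 0 h level, with log2 changes of 0.0017 at 24 h and 0.15 at 48 h. Just inside and just outside 2-fold lay APCDD1L-DT (1.004) and DCLK2 (0.9998) upward, and FLJ46875 (-1.006) and IGFBP5 (-0.997) downward.

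Other probe sets of the genes past 2-fold were a further reading of the same RNA. For the 75 higher genes, 13 had other tested probe sets, 19 in all, of which 14 were higher on both arrays and 8 by 2-fold. For the 43 lower genes, 8 had 11 others, of which 6 were lower on both and 3 by 2-fold.

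The early arrays differed from each other by about as much as from 0 h. Between 24 and 48 h, 187 genes (1.57%) were at least 2-fold apart, against 194 (1.62%) between 0 and 24 h and 207 (1.73%) between 0 and 48 h. The SD over genes of the difference between 48 and 24 h was 0.53 for genes with a mean signal of 17.9 to 50 and 0.16 at 1000 and over. The SD of the mean change from 0 h was 0.46 and 0.13 in the same classes. These SDs are unlike measures, since a mean of 2 arrays varies less than 1 array alone. At a mean signal of at least 100, 5 genes were 2-fold apart between the early arrays, against the 16 past 2-fold from 0 h. The rules differ here too: the 16 rest on the mean of both early arrays and a shared direction, the 5 on 2 single arrays. The genes furthest apart were dim on at least 1 array. MLXIPL read 13.5, 2.7 and 37.4, HCN2 30.9, 2.9 and 29.2, and the synaptic vesicle gene SYP 8.2, 29.9 and 4.0.

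**Figure D5:**
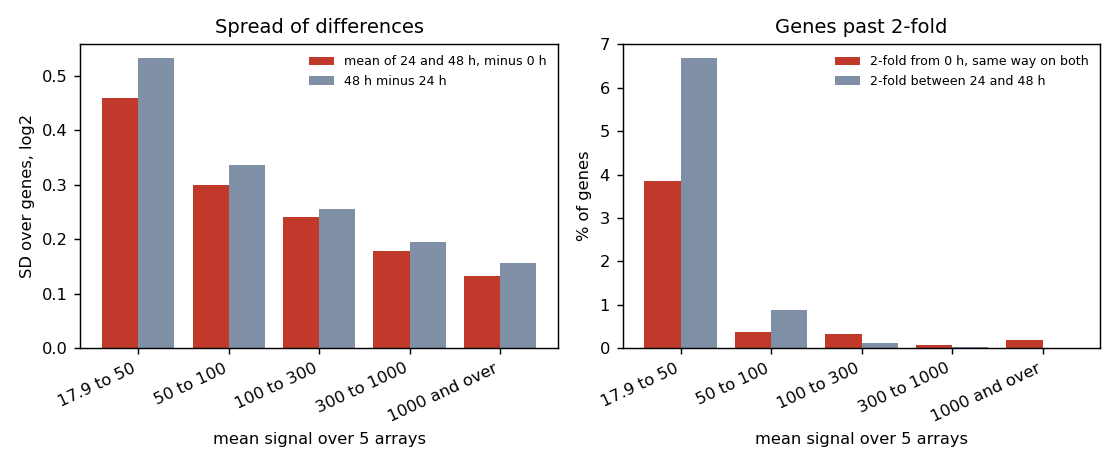
Spread and calls in 5 classes of mean signal. Red bars use the mean of the 2 early arrays, on the right with a shared direction, and grey bars compare 2 single arrays. The left panel gives the SD over genes of the mean early change from 0 h (red) and of the difference between 48 and 24 h (grey), 0.46 and 0.53 in the dimmest class and 0.13 and 0.16 in the brightest; the right panel gives the percentage of genes past 2-fold by the same comparisons, 3.84% and 6.68% in the dimmest class.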

How the data were processed

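Total RNA of 5 IMR32 samples was hybridised to Affymetrix U133 Plus 2.0 arrays. Per the submitters' processing notes the software was MAS5 and GCOS, with no versions given. The authors deposited log2 values. They were taken as log2 signals, because undoing the log gave a multiple of 0.1, within 0.01, for 100% of them. For the log step, floor and scaling target the labels give nothing, so these were inferred from the values. Each array's trimmed mean was 100.02 to 100.03, so no scaling was added. An offset of 4.7, the median of the arrays' 25th percentiles, was added before log2.

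GEO's platform annotation names 1 gene for 41091 of 54675 probe sets, and the 62 control probe sets and those naming several genes (1801) were left out. Symbols were checked against RefSeq GRCh38.p14. The filter was a mean signal of 17.9, the median of all signals. The fit used limma 3.58.1 (R 4.3.3; lmFit, then eBayes with trend=TRUE). It had 1 degree of freedom for the residual and 17.6 for the prior, and was two-sided, with Benjamini-Hochberg adjustment and a threshold of 0.05. The scripts were tested on simulated data. Counts and medians used Python 3.11.15 with pandas 2.3.3. The number of arrays limits the precision, and no label says that the samples came from separate cultures.

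Named were the 12 genes furthest up and the 12 furthest down by the smaller early change among those past 2-fold, EGR1, ID3, ID1, CHRNA1, SDK2 and MEIS1, up to 4 members per list and other members a sentence counts, and the 5 genes furthest apart each way between 24 and 48 h. The comparison, the genes and the 31 lists were chosen with earlier results of these data known. Alternatives were other offsets, filters, scalings, probe set rules, call rules, 1 early array alone and a fit on all 5 arrays.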

Additional observations from a re-analysis of the deposited data

Results flagged for a closer look

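For 9 genes the 24 and 48 h arrays lay on opposite sides of 0 h and were among the furthest apart. The difference between the early arrays was not tested, since each is 1 array. The log2 difference of 48 h minus 24 h was 2.51 for MLXIPL, a glucose-responsive factor, 2.42 for the glutamate receptor gene GRM4, 2.28 for MIATNB and 2.15 for MROH1, all low at 24 h and high at 48 h. It was -1.99 for SYP, -1.92 for COLQ, which anchors acetylcholinesterase at the endplate, -1.86 for the sarcomere gene MYOM2, -1.82 for LYG1 and -1.81 for the myosin light chain gene MYL10, all low at 48 h. GRM4 read 13.3, 3.9 and 41.3 at 0, 24 and 48 h and COLQ 14.3, 44.6 and 8.3. All 9 read under 10 on at least 1 early array.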

How the results depend on the processing

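No paired analysis was possible because each group has 1 array. No result changed sign while called. The 75 genes higher by 2-fold became 17 (offset 4 times larger), 494 (no filter), 13 (filter of 100) and 297 (1.5-fold), and 81 to 129 with 1 early array alone. The 43 lower became 72 and 7 (offset smaller and larger), 481, 3 and 324 under the same filter and fold settings, 12 with 2-fold required on each array, and 78 to 113 with 1 early array. Of limma's calls, 15 rose and 3 fell; these were 0 and 0 with no filter (1038 genes with an unadjusted p under 0.05), 29 and 13 with a filter of 100, 1 and 1 with quantile normalization, 0 and 1 with the mean of probe sets (631 unadjusted) and 4 and 0 in the fit on all 5 arrays (598 unadjusted). The prior degrees of freedom moved with them, from 17.6 to 1.62 with no filter and 42.2 with the filter of 100. They were 9.40 with quantile normalization, 7.38 with the mean of probe sets and infinite with array medians set equal. Of the 18 calls, 0 passed every alternative. List medians moved, beyond the SD of 0.11 between the early arrays, for ERK feedback (-0.29, filter of 100), ID and BMP targets (0.32 with no filter, 0.31 with the mean of probe sets), muscle (-0.18, 0.84 and 0.70 with no filter, the filter of 100, which leaves 1 gene, and the mean of probe sets) and mesenchymal genes (-0.14, filter of 100). With 1 early array alone they ran from -0.17 to 0.098 for immediate early genes, -0.37 to -0.15 for ERK feedback, 0.37 to 0.42 for ID and BMP targets, -0.11 to 0.088 for nicotinic subunits, 0.25 to 0.59 for muscle, -0.028 to 0.12 for sympathetic factors, 0.25 to 0.56 for catecholamine and granin genes, -0.019 to 0.084 for D cyclins and CDK inhibitors, -0.015 to 0.22 for ribosomal proteins, -0.11 to 0.081 for cholesterol, -0.21 to 0.031 for Notch and -0.15 to 0.058 for mesenchymal genes. All other list medians moved by less.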
